A study of Mus musculus with 48 samples.

Results

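Hippocampal (HPC) gene expression 7 days (7 d) after the last ethanol vapor exposure was compared between 6 chronic intermittent ethanol (CIE) mice and 6 control (Ctrl) mice, the 12 of the series' 48 mice whose labels give this harvest. All were adult male C57BL/6J mice, an inbred strain, and each gave 1 array. In a cycle the CIE mice breathed ethanol vapor (10 to 13 mg/l) for 16 h a day on 4 days and then had 7 days without ethanol, and they went through 4 cycles. Before vapor they were injected with ethanol at 1.6 g/kg and with pyrazole, which slows the breakdown of ethanol, at 1 mmol/kg. The Ctrl mice breathed air and were injected with saline and the same dose of pyrazole, so both groups had received pyrazole. The other 36 mice were harvested 0 h, 8 h and 72 h after vapor.

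The hippocampus is built from the dentate gyrus and the pyramidal cell fields CA3 and CA1, together with astrocytes, oligodendrocytes, vessels and microglia, the resident immune cells of the brain. Repeated ethanol exposure and withdrawal is known to engage innate immune signalling in brain, including microglial activation and genes induced by interferons. In bulk tissue of this kind, more cells of one type and more RNA per cell cannot be told apart.

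Values are log2 expression, in which a difference of 1 stands for a doubling, and levels are not compared between genes because probes differ in brightness. A gene was called when its adjusted p was at or below a false discovery rate (FDR) of 0.01 in limma, a linear model fitted across all probe sets, and only called genes are said to have risen or fallen. Pairs of 7 d arrays correlated at 0.978 to 0.997. The labels gave no hybridization batch. Exactly equal values between arrays placed 47 of the 48 arrays in 6 sets, an inference, and these are called hybridization sets here. Each set held 1 CIE and 1 Ctrl mouse of 7 d, so each CIE mouse could also be set against the Ctrl mouse of its own set.

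Marker genes of neighbouring tissue and of hippocampal subfields differed between dissections, and 2 Ctrl mice stood apart. The mean of 20 striatal neuron genes was 7.35 to 7.69 in CIE mice. It was 8.95 for Ctrl mouse 18 and 9.34 for Ctrl mouse 22, whereas the 4 further Ctrl mice had 7.58 to 7.70. These 2 arrays were also the lowest Ctrl arrays for dentate granule cell genes, at 7.80 and 7.72, and the highest of all 12 for myelin genes, at 10.40 and 10.78. They therefore carried more striatal and myelin transcript and less dentate gyrus transcript than the other Ctrl arrays, and the main results below are also given without them. Among CIE mice, the dentate gyrus mean of CIE mouse 59 was 7.93, and that of the other 5 lay between 9.23 and 9.95.

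Markers of subfields and of tissue linings also differed between mice. The mean of 10 CA1 pyramidal cell genes was 10.12 to 11.00 in CIE mice and 8.61 to 10.59 in Ctrl mice, with a median change of 0.94, or 0.95 without Ctrl mice 18 and 22. None of the 10 was called, 5 passed an FDR of 0.05, and Ctrl mouse 70 overlapped the CIE mice. Of 12 CA3 and CA2 genes and 14 dentate granule cell genes 0 were called, with medians of -0.26 and 0.18, and of -0.36 and -0.45 without both mice. Meningeal and fibroblast genes averaged 7.10 to 8.30 in CIE mice and 6.97 to 7.37 in Ctrl mice, and choroid plexus genes averaged 5.55 to 5.93 in CIE mice and 5.09 to 5.61 in Ctrl mice. The part of these dissection and cell type differences in the gene results was not tested.

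**Figure D1:**
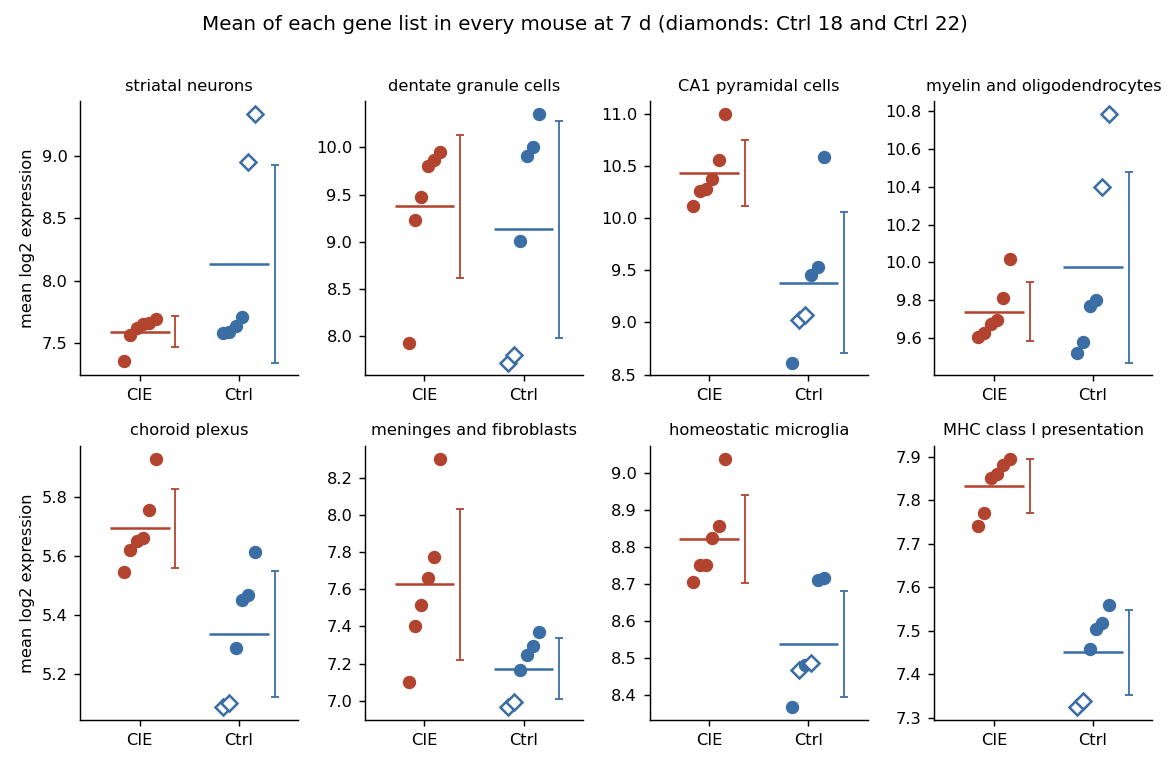
Mean log2 expression of 8 gene lists (1 panel each, y axis) in each mouse at 7 d, CIE mice left and Ctrl mice right, with the group mean as a line and the SD as a bar; diamonds mark Ctrl mice 18 and 22. The diamonds stand high for striatal and myelin genes and low for dentate genes, and the groups do not overlap for MHC class I genes.

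In HPC at 7 d, 190 genes were called different between CIE and Ctrl mice, 160 of them higher in CIE mice, with each gene represented by its probe set of highest mean. Of 18193 genes, 160 were called higher in CIE mice, which is 0.879% of genes tested, and 30 were called lower, which is 0.165%. Over all 45037 probe sets, the array's units of measurement, 604 were called, or 1.34%, with 295 higher and 309 lower, and 243 genes were higher and 208 lower by at least 1 probe set, so the balance of directions depended on the choice of probe set. The changes were small: the median was 0.44 among the higher genes and -0.47 among the lower genes, beside 0.03 over all genes. Only 9 genes rose by 1 or more and 3 fell by 1 or more on the log2 scale. At an FDR of 0.05, 732 genes were called higher (4.02%) and 161 lower (0.885%).

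The calls depended on Ctrl mice 18 and 22. Without them, 0 genes and 11 probe sets passed an FDR of 0.01 in limma, the smallest adjusted p of a gene was 0.0104, and 52 genes passed 0.05, of which 41 were among the 190. At an unadjusted p of 0.05, 1843 genes were then higher in CIE mice (10.1%) and 646 lower (3.55%). All 190 genes kept their sign and an unadjusted p at or below 0.05, and their change without both mice was a median of 0.847 times the change with them, with a range of 0.400 for Oprk1 to 1.25. These genes were chosen with both mice in the fit and the other 10 mice are shared, so this describes the genes and is no independent support. Leaving out single mice also moved the count of 190, to 21 genes without Ctrl mouse 22, 30 without Ctrl mouse 18, 37 without CIE mouse 45, 50 without CIE mouse 9, 75 without CIE mouse 7, 103 without Ctrl mouse 80 and 540 without Ctrl mouse 70. The main model takes the spread of each gene from the mice of all harvests, so its SE and p-values do not rest on the 7 d mice alone. With only the 12 arrays of 7 d in the model, which leaves a less certain estimate of the spread, 0 genes were called. Whether the spread at 7 d was also larger than at the other harvests was not tested. With the hybridization set as a block, 63 of the 190 were still called, 54 higher and 9 lower. Within the sets, the CIE mouse was above its Ctrl mouse in all 6 sets for 132 of the 160 higher genes and below it in all 6 for 21 of the 30 lower genes, beside 5.54% and 1.42% of all genes. The same mice made the calls, so nothing is read from these counts.

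**Figure D2:**
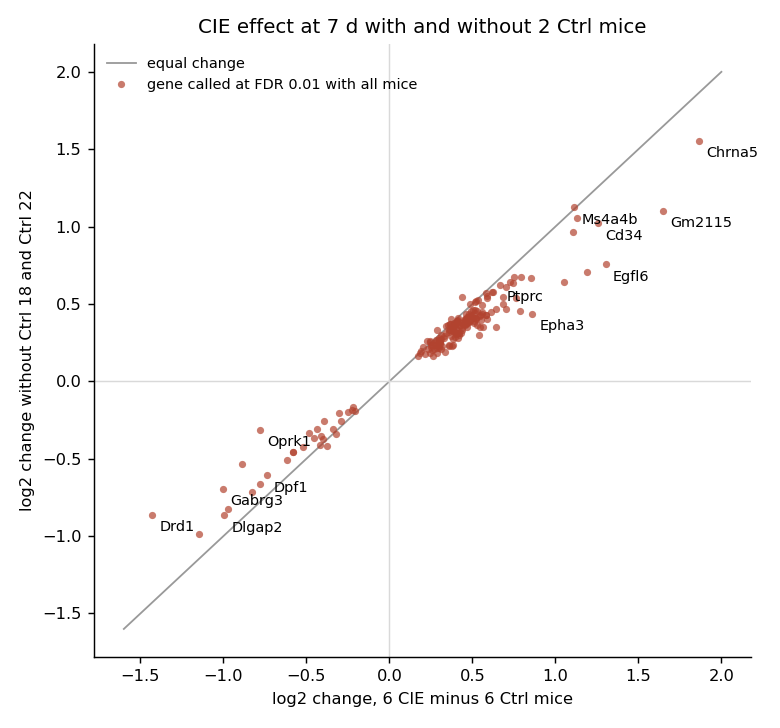
Log2 change of each of the 190 called genes between 6 CIE and 6 Ctrl mice at 7 d (x axis) against the change with Ctrl mice 18 and 22 left out (y axis); points are genes and the grey line marks equal change. The genes keep their sign, and most lie a little nearer to 0 on the y axis, at a median of 0.847 times the change with all mice.

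Full separation of the groups was seen in a smaller number. All 6 CIE mice lay above all 6 Ctrl mice for 214 genes (1.18%) and below them for 38 (0.209%). Of the called genes, 66 of the 160 higher and 11 of the 30 lower did not overlap. Since the call and the separation rest on the same values, the second count describes the first.

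Genes of leukocytes were among the changes with the smallest p. Ptprc, which encodes CD45, the tyrosine phosphatase carried by all nucleated blood cells and microglia, had a lowest, median and highest value of 7.76, 8.01 and 8.20 in CIE mice and of 7.16, 7.35 and 7.50 in Ctrl mice. Its log2 change was 0.66 ± 0.10 (SE from the model of all harvests, 6 mice a group; adjusted p = 0.000546), and the groups did not overlap. Without Ctrl mice 18 and 22 the change was 0.63. Cd48, a surface protein of the signalling lymphocyte family, lay at 5.41, 5.69 and 5.85 in CIE mice and at 4.68, 4.90 and 5.17 in Ctrl mice. It rose by 0.75 ± 0.13 (adjusted p = 0.00138), again with no overlap, and by 0.67 without both mice. Naip5, an inflammasome sensor of bacterial flagellin, lay at 5.71, 5.84 and 6.14 in CIE mice and at 5.19, 5.26 and 5.42 in Ctrl mice. Its change was 0.59 ± 0.09 (adjusted p = 0.000347), and 0.55 without both mice.

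Transcripts typical of T cells rose as well. Ms4a4b, a membrane protein of T cells, lay at 4.71, 5.26 and 5.70 in CIE mice and at 3.92, 4.17 and 4.50 in Ctrl mice, a log2 change of 1.11 ± 0.23 (adjusted p = 0.00401). It kept this size, at 1.12, without Ctrl mice 18 and 22. The chemokine Ccl5, which draws T cells and monocytes, lay at 7.26, 7.86 and 8.23 in CIE mice and at 6.09, 6.67 and 7.19 in Ctrl mice, a change of 1.13 ± 0.25 (adjusted p = 0.00674). The groups were apart for both genes. Cxcr6, a chemokine receptor of T cells, rose by 0.49 ± 0.10, Gimap4, a GTPase of lymphocytes, by 0.62 ± 0.11, and Trav9d-3, a variable segment of the T cell receptor alpha chain, by 0.62 ± 0.11. With Lcp1, an actin bundling protein of leukocytes that rose by 0.53, the costimulatory ligand Cd86, which rose by 0.41, and Havcr2, the checkpoint receptor TIM-3, which rose by 0.52, and with Ptprc, Cd48 and Naip5, these made 11 called leukocyte genes, 9 of them without overlap. This grouping was made after the values were seen, so nothing is read from its counts. Over all genes, 0.879% were called higher and 1.18% lay higher without overlap. The other 21 of 22 listed chemokines and cytokines were not called, Il6 and Il1a among them, with a list median of 0.01. Several of these signals were dim. In Ctrl mice Ms4a4b, Cxcr6, Gimap4 and Trav9d-3 lay no higher than 4.76 and Cd48 no higher than 5.17. An alternative fit dropped probe sets with means up to 5.37 as the dimmest.

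A few microglial genes rose, and most members of their lists had small positive changes that did not pass the test. The change was positive in 61.8% of all genes. Of 13 genes for microglial Fc and inhibitory receptors, 3 rose, beside 0.879% of all genes, and 12 had a positive change, with a median of 0.36, or 0.29 without Ctrl mice 18 and 22. Their mean was 7.25 to 7.44 in CIE mice and 6.94 to 7.10 in Ctrl mice. The 3 were Lair1, an inhibitory collagen receptor (0.46 ± 0.10), Ms4a6b (0.53 ± 0.11) and Fcer1g, the signalling chain shared by activating Fc receptors (0.36 ± 0.08). The member without a positive change was Fcgr2b (-0.09), by a probe set other than those the study listed as candidates at 7 d. Of 16 homeostatic microglia markers, 2 rose and 15 had a positive change, with a median of 0.29 and 0.27 without both mice. Olfml3, a secreted protein of microglia, lay at 8.28, 8.47 and 8.65 in CIE mice and at 7.89, 7.96 and 8.19 in Ctrl mice (change 0.45 ± 0.09, adjusted p = 0.00297), with no overlap. Tmem119, the widely used microglial surface marker, rose by 0.40 ± 0.09 with overlapping groups, and the purinergic receptor P2ry12 missed the threshold at 0.43 ± 0.10 (adjusted p = 0.0114). The complement list, 12 genes of the cascade that tags synapses for removal, had 0 calls and a median of 0.18.

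**Figure D3:**
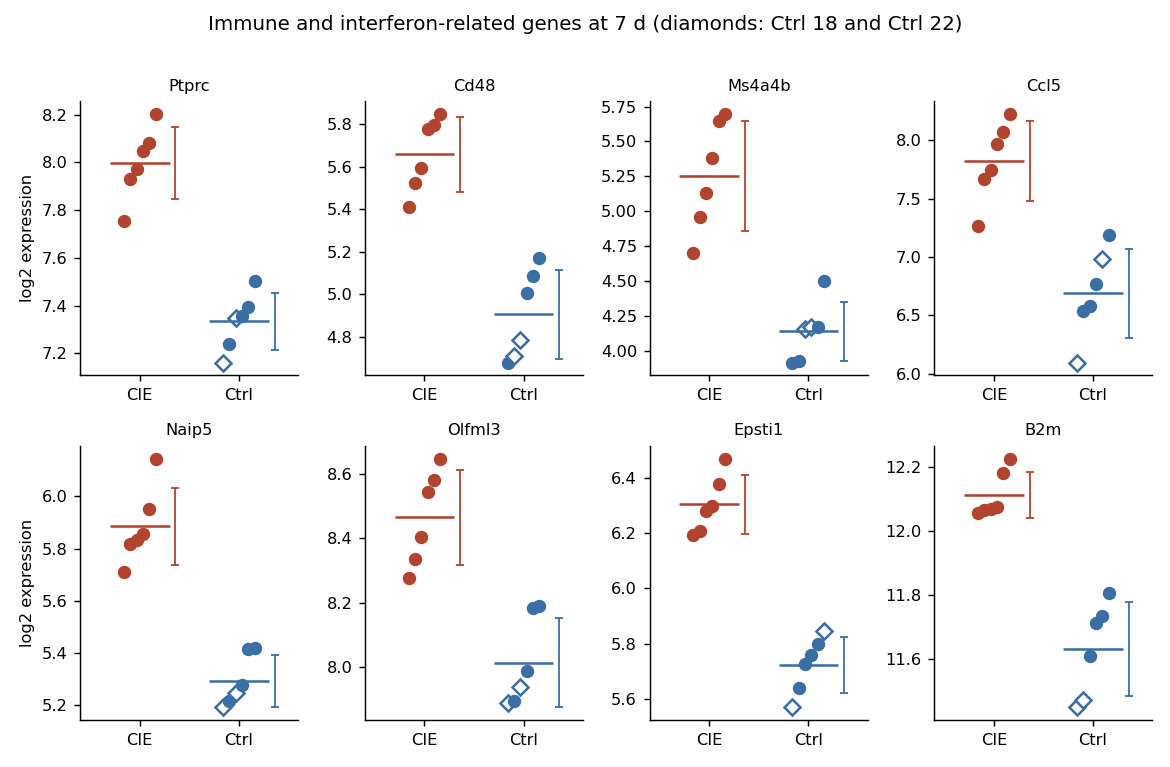
Log2 expression (y axis) of 8 immune and interferon-related genes in each mouse at 7 d, CIE mice left and Ctrl mice right, with the group mean as a line and the SD as a bar; diamonds mark Ctrl mice 18 and 22. In each panel the 6 CIE mice lie above the 6 Ctrl mice, as for Ptprc, at 7.76 to 8.20 against 7.16 to 7.50.

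Few listed genes of the interferon response and none of antigen presentation were called. Of 31 antiviral interferon-stimulated genes, 1 rose (0.879% of all genes), 7 were higher at an FDR of 0.05 (4.02% of all genes) and 27 had a positive change (61.8% of all genes), with a median of 0.24 and of 0.28 without Ctrl mice 18 and 22. The list mean was 6.82 to 7.12 in CIE mice and 6.62 to 6.81 in Ctrl mice. Of 11 genes for MHC class I, the system that displays peptides to CD8 T cells, 0 were called and 11 had a positive change, with a median of 0.36 and of 0.29 without both mice. The class I mean was 7.74 to 7.89 in CIE mice and 7.32 to 7.56 in Ctrl mice. Neither mean overlapped between groups. Of 9 interferon-inducible GTPases 0 were called, with a median of 0.34 and of 0.18 without both mice, and of 7 MHC class II genes 0 were called, with a median of 0.07 and of -0.02 without both mice.

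Promoters of Ifitm2, Trim12c and B2m, described below, are printed because each holds an interferon-stimulated response element. Only B2m is a member of the lists above. The element was searched on both strands as GAAA, any 2 bases, GAAA. Windows run from 250 bases before to 50 bases after the start site, 5′ to 3′ on the gene's strand, from RefSeq on GRCm38.p6, with the element in capitals. They are Ifitm2 at chr7:140955912-140956211 (minus strand), Trim12c at chr7:104353300-104353599 (minus strand) and B2m at chr2:122147437-122147736 (plus strand), and the element begins 46, 29 and 139 bases before the start site.
Ifitm2: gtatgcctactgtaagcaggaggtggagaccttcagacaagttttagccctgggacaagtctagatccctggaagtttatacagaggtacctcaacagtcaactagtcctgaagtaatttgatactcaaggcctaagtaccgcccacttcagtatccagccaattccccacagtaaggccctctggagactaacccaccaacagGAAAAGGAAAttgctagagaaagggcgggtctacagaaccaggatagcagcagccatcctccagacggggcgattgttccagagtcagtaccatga
Trim12c: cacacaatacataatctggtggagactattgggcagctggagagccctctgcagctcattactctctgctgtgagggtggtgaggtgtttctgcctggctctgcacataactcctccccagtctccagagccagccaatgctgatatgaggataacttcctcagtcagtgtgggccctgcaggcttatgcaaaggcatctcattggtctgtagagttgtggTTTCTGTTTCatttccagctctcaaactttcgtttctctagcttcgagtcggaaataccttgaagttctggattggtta
B2m: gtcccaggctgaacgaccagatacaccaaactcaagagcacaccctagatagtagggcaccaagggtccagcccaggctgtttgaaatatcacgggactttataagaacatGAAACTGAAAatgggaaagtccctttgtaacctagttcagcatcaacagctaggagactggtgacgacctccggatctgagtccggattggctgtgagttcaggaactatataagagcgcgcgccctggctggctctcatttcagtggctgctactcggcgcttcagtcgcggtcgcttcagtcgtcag
In Trim12c the element reads on the opposite strand. It was found in 3.63% of the 14452 genes with a promoter in the table, in 47.6% of 21 interferon-stimulated genes, in 22.2% of 9 MHC class I genes, in 7.52% of the 133 called higher and in 9.09% of the 22 called lower. The 10 called higher were Bco2, Fbln5, Fer, Ginm1, Ifitm2, Mitd1, Rnf146, Tll1, Tmem140 and Trim12c, of which Ifitm2 and Trim12c are printed. A match is a description of the letters in the window.

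Ifitm2, a membrane protein that restricts virus entry, lay at 6.86, 7.13 and 7.62 in CIE mice and at 6.25, 6.70 and 6.83 in Ctrl mice. It rose by 0.58 ± 0.11 (adjusted p = 0.00158), without overlap, and by 0.43 when Ctrl mice 18 and 22 were left out. Trim12c, a member of the TRIM family of ubiquitin ligases, lay at 6.40, 6.69 and 7.14 in CIE mice and at 5.89, 6.20 and 6.596 in Ctrl mice, and rose by 0.52 ± 0.12 (adjusted p = 0.00933) with overlapping groups. B2m, the light chain of every MHC class I molecule, lay at 12.06, 12.07 and 12.23 in CIE mice and at 11.45, 11.66 and 11.81 in Ctrl mice. The groups were apart, yet B2m was not called (0.48 ± 0.13, adjusted p = 0.0208). Parp9, an interferon-induced ADP-ribosyltransferase, rose by 0.56 ± 0.12 (adjusted p = 0.00577), Epsti1, an interferon-induced gene, by 0.58 ± 0.11 (adjusted p = 0.00256), and Tlr3, the receptor for double-stranded RNA, by 0.56 ± 0.11 (adjusted p = 0.00297). None of these overlapped between groups. The change of Epsti1 was 0.57 without both mice, that of Parp9 0.45 and that of Tlr3 0.35. Dtx3l, the ubiquitin ligase partner of Parp9 (0.46 ± 0.12), Parp12 (0.49 ± 0.13) and Trim30a (0.57 ± 0.15) had no overlap and adjusted p of 0.0159 to 0.0195.

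Single genes known from the vessel wall, meninges or choroid plexus rose. Of 16 meningeal and fibroblast genes 0 were called, of 13 choroid plexus genes 1 and of 16 endothelial and pericyte genes 0. Over all genes, 0.879% were called higher and 0.165% lower. The list medians were 0.52, 0.14 and 0.22, and 0.37, 0.11 and 0.08 without Ctrl mice 18 and 22. Kl, which encodes Klotho and is abundant in choroid plexus, lay at 7.64, 7.87 and 8.47 in CIE mice and at 6.02, 7.11 and 7.82 in Ctrl mice (change 1.05 ± 0.22, adjusted p = 0.00385), and the change was 0.65 without both mice. Cd34, a sialomucin of endothelial and progenitor cells, lay at 9.24, 9.62 and 10.00 in CIE mice and at 7.80, 8.07 and 9.25 in Ctrl mice, a change of 1.26 ± 0.27 (adjusted p = 0.00492) and of 1.02 without them. Egfl6, a secreted protein with EGF-like repeats, rose by 1.30 ± 0.28 and had a change of 0.76 without both mice. Groups overlapped for these 3. For each of them CIE mouse 59 and Ctrl mouse 70 held the highest value of their group, as for the CA1 list mean. CIE mouse 59 had the lowest CIE mean of the endothelial list, at 8.08, and of the meningeal list, at 7.10. Which cells carried these transcripts was not tested. Mamdc2, an extracellular matrix protein, rose by 0.69 ± 0.12 and Fbln5, an elastic fibre protein, by 0.72 ± 0.17, both without overlap. The growth factor Igf1 rose by 0.54 ± 0.13, with 0.30 without both mice, and the amino acid transporter Slc6a20a rose by 0.79 ± 0.18, with 0.45 without them. Ttr, the thyroxine carrier made by choroid plexus, lay at 9.93 to 11.58 in CIE mice and at 6.42 to 10.29 in Ctrl mice and was not called (2.18 ± 0.58, adjusted p = 0.0192).

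The neuronal genes with the highest changes varied widely among Ctrl mice. Chrna5, the nicotinic acetylcholine receptor subunit alpha 5, lay at 6.84, 7.18 and 8.31 in CIE mice and at 4.33, 5.37 and 7.61 in Ctrl mice. It rose by 1.86 ± 0.40 (adjusted p = 0.00489), the highest log2 change among called genes, and the change was 1.55 without Ctrl mice 18 and 22. Ctrl mouse 70 held the highest Ctrl value of Chrna5, and of Gm2115, Lrmp, Htr1a and Kcnn2, as it did for the CA1 list mean, and CIE mouse 59 held the highest CIE value of each. Of 12 nicotinic receptor genes, 11 were not called, and the list median was 0.06. Htr1a, the serotonin 1A receptor, lay at 8.15, 8.41 and 9.16 in CIE mice and at 6.89, 7.70 and 8.63 in Ctrl mice (0.85 ± 0.19, adjusted p = 0.00747).

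Some further neuronal genes rose, a grouping made after their values were seen. Of 15 AMPA and kainate receptor genes 1 rose and of 18 NMDA receptor and scaffold genes 1 fell. Of 27 synaptic vesicle and release genes 0 were called. The list medians were 0.02, 0.10 and -0.01, and over all genes 0.879% were called higher and 0.165% lower. The AMPA receptor subunit Gria1 lay at 12.37, 12.54 and 12.58 in CIE mice and at 11.86, 12.26 and 12.44 in Ctrl mice, and rose by 0.34 ± 0.08 (adjusted p = 0.00864), with 0.19 without Ctrl mice 18 and 22. Kcnn2, a small-conductance calcium-activated potassium channel, rose by 0.56 ± 0.13, with 0.43 without both mice. The adenylyl cyclase Adcy2 rose by 0.38 ± 0.08, the reelin adaptor Dab1 by 0.36 ± 0.08 and Hapln1, the link protein of perineuronal nets, by 0.64 ± 0.15. All of these overlapped between groups. Ddit4l, an inhibitor of mTOR signalling, lay at 8.95, 9.30 and 9.91 in CIE mice and at 8.15, 8.35 and 9.20 in Ctrl mice, and rose by 0.79 ± 0.14 (adjusted p = 0.00145), with 0.67 without both mice. Epha3, an ephrin receptor, rose by 0.86 ± 0.19 and Ror1, a Wnt5a receptor, by 1.19 ± 0.26, with 0.44 and 0.71 without both mice.

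The 30 lower genes included genes typical of striatal neurons. Drd1, the dopamine D1 receptor, lay at 6.74, 7.75 and 8.58 in CIE mice and at 7.99, 8.98 and 10.49 in Ctrl mice. It fell by 1.43 ± 0.30 on the log2 scale (adjusted p = 0.00396), and the change was -0.86 without Ctrl mice 18 and 22, the other 4 Ctrl mice lying at 7.99 to 9.12. Oprk1, the kappa opioid receptor, lay at 4.88, 5.08 and 5.43 in CIE mice and at 5.26, 5.48 and 7.00 in Ctrl mice, and its change of -0.78 ± 0.19 was -0.31 without both mice. That was the lowest ratio among the 190 genes, 0.400. The G protein-coupled receptor Gpr83 changed by -0.89 ± 0.17, and by -0.53 without them. Of 20 striatal neuron genes, 1 fell and 0 rose, beside 0.165% and 0.879% of all genes. Their median was -0.52, and -0.06 without both mice. Drd2, Rgs9 and Pde10a, further genes of that list, had changes of -0.68, -0.66 and -0.44 and were not called. Pdyn, which is not on the list, had a change of -0.83 and was not called. With Ctrl mice 18 and 22 set aside, Drd1 and Pdyn were lowest in CIE mouse 59 and Ctrl mouse 70 of each group. The mean of the dentate granule cell list was also lowest in these mice. Which cells carried Drd1 and Pdyn was not tested.

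Other lower genes encoded proteins of synapses, mitochondria and the nucleus. Gabrg3, the gamma 3 subunit of the GABA-A receptor, lay at 5.84, 5.98 and 6.27 in CIE mice and at 6.18, 6.98 and 7.66 in Ctrl mice, a change of -1.003 ± 0.16 (adjusted p = 0.00071) and of -0.70 without Ctrl mice 18 and 22. Ctrl mouse 46, at 6.18, was the only Ctrl mouse within the CIE range. Dlgap2, a postsynaptic scaffold protein, changed by -0.997 ± 0.22, and the synaptic vesicle protein Sv2c by -0.97 ± 0.19, with -0.87 and -0.82 without both mice. Dpf1, the neuronal BAF45b subunit of the BAF chromatin remodelling complex, lay at 8.24, 8.42 and 8.61 in CIE mice and at 8.77, 9.11 and 9.45 in Ctrl mice. Its change was -0.74 ± 0.12 (adjusted p = 0.000547), -0.61 without both mice, and the groups did not overlap. Slc25a27, a mitochondrial carrier also called UCP4, changed by -0.78 ± 0.16 (adjusted p = 0.00359), the transcriptional corepressor Irf2bp2 by -0.42 ± 0.08 and Irs2, an adaptor of insulin and IGF1 receptors, by -0.38 ± 0.09. None of these 3 overlapped between groups. Irf2bp2 lay at 9.84, 9.93 and 10.18 in CIE mice and at 10.33, 10.39 and 10.42 in Ctrl mice, and its change was -0.41 without both mice. Zbed6, a transcriptional repressor of Igf2, changed by -1.15 ± 0.25, with 1 CIE mouse above the Ctrl mouse of its set.

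**Figure D4:**
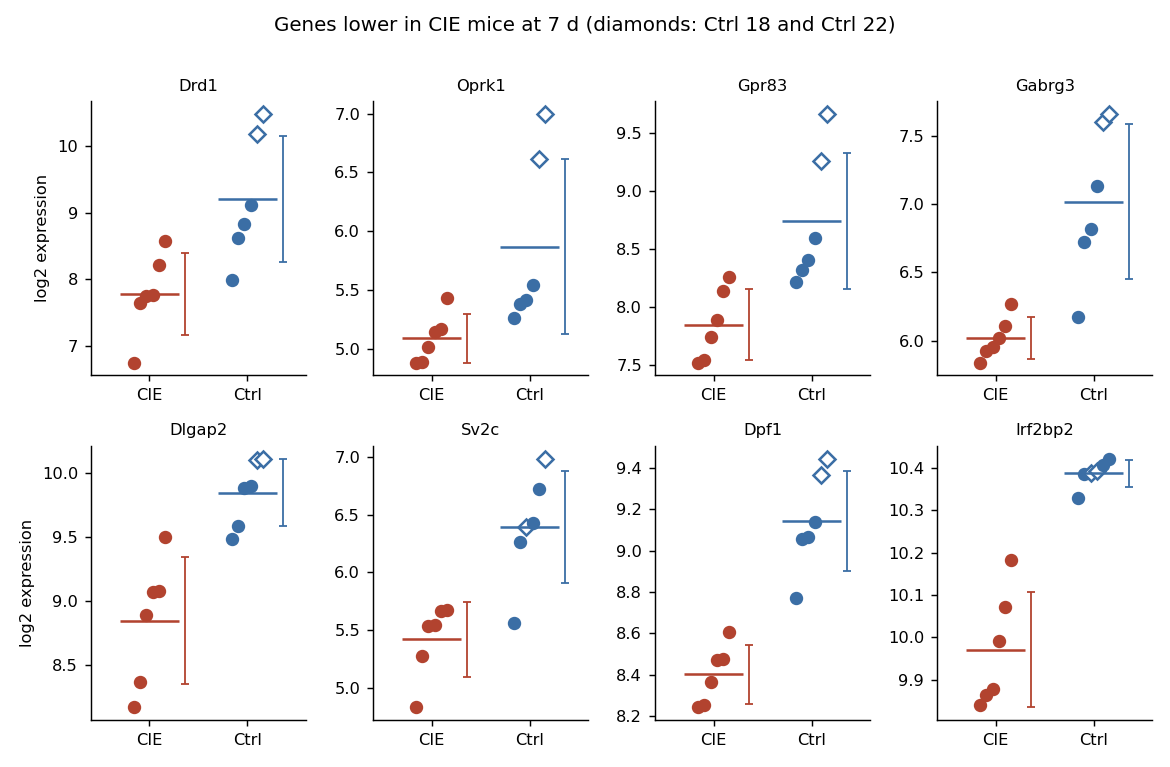
Log2 expression (y axis) of 8 genes called lower in CIE mice at 7 d, CIE mice left and Ctrl mice right, with the group mean as a line and the SD as a bar; diamonds mark Ctrl mice 18 and 22. The diamonds are the highest points for Drd1, Oprk1, Gpr83, Gabrg3, Dlgap2 and Dpf1. For Dpf1 and Irf2bp2 all Ctrl mice lie above all CIE mice.

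Regulators of transcription were called one by one rather than as lists. Zfp217, a zinc finger repressor, lay at 6.72, 6.85 and 7.03 in CIE mice and at 6.21, 6.32 and 6.52 in Ctrl mice (0.52 ± 0.08, adjusted p = 0.000629; 0.51 without Ctrl mice 18 and 22). It had the smallest adjusted p of any gene when both mice were left out. Gtf2a1, a subunit of the general factor TFIIA, rose by 0.40 ± 0.07 (adjusted p = 0.00071) and Chd1, a remodeler that reads methylated histone H3, by 0.33 ± 0.07, neither with overlap. The deacetylase Hdac9 rose by 0.43 ± 0.10 with overlap. Mdm4, an inhibitor of p53, rose by 0.25 ± 0.05 and its groups were apart. Of 42 chromatin remodelers, 1 rose and 1 fell, and of 27 histone acetylation enzymes 1 rose. Of 35 enzymes of DNA and histone methylation 0 were called. The list medians were 0.0018, 0.02 and -0.01, and over all genes 0.879% were called higher and 0.165% lower. These counts use each gene's probe set of highest mean and do not speak for its other probe sets. The study listed probe sets of Dnmt3a and Chd4 among its hippocampal candidates at 7 d, and these need not be the ones counted. The histone demethylase Kdm6b lay at 8.10 to 8.51 in CIE mice and at 8.50 to 8.98 in Ctrl mice and was not called (-0.41 ± 0.11, adjusted p = 0.0161). In the clock list, Arntl, which encodes BMAL1, rose by 0.41 ± 0.07 (adjusted p = 0.00145), Rorb fell by 0.83 ± 0.19, and the other 19 of 21 genes were not called. Rorb is also among the 11 markers of neocortex and subiculum, of which it alone was called, with a list median of -0.14.

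Metabolic genes with calls were few. Acss1, the mitochondrial enzyme that turns acetate, the end product of ethanol breakdown, into acetyl-CoA, lay at 9.02, 9.37 and 9.46 in CIE mice and at 8.52, 8.72 and 9.22 in Ctrl mice, and rose by 0.54 ± 0.11 (adjusted p = 0.00396). Its change was 0.43 without Ctrl mice 18 and 22. The other 13 of 14 listed genes of alcohol, aldehyde and acetate metabolism were not called, with a list median of 0.14. Akr1b10, an aldo-keto reductase, rose by 0.52 ± 0.09, Nat2, an N-acetyltransferase, by 0.34 ± 0.07 and the glycerol channel Aqp9 by 0.39 ± 0.08. For Aqp9 the groups were apart, with 6.13 to 6.47 in CIE mice and 5.69 to 6.05 in Ctrl mice. The cystine transporter Slc7a11 (0.49 ± 0.12) and the quinone reductase Nqo1 (0.36 ± 0.09), targets of the oxidative stress factor NRF2, did not overlap and were not called. Of 19 listed NRF2 and oxidative stress genes 0 were called, 2 did not overlap and 9 had a positive change, with a median of -0.01. Over all genes, 1.18% lay higher without overlap and 61.8% had a positive change.

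Of 54 gene lists, 35 held 0 called genes. The 44 oxidative phosphorylation genes, 31 cytosolic ribosomal proteins, 21 cholesterol synthesis genes and 31 proteasome and ubiquitin genes had medians of 0.01, 0.01, -0.01 and -0.01. Glucocorticoid-responsive genes, heat shock chaperones, endoplasmic reticulum chaperones and immediate early genes had medians of 0.05, 0.05, 0.03 and 0.04, near the 0.03 of all genes. Of 22 genes the study named as network hubs, 2 rose, Parp9 and Chrna5, beside 0.879% of all genes. Since the study chose the hubs on these samples, their count is no independent evidence. The count uses each gene's probe set of highest mean. This need not be a probe set the study listed, as for Fcgr2b, so the count does not speak for the study's hub probe sets.

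The probe sets called lower had a different make-up from those called higher. Where a gene had several probe sets, the one with the highest mean was chosen for the gene counts. Chosen probe sets made up 160 of the 295 called higher, or 54.2%, but only 30 of the 309 called lower, or 9.71%, beside 40.4% on the array. The lower calls held 191 further probe sets of 179 genes (61.8%, beside 37.2% on the array) and 86 without a gene symbol. For these 179 genes the further probe sets had a median change of -0.78 and the chosen ones of -0.0049, and 1 gene was also called lower by its chosen probe set. Malat1, an abundant nuclear noncoding RNA with 7 probe sets, had 0 called probe sets (adjusted p = 0.0184 to 0.762), and its probe sets differed among themselves. The mean of 5 probe sets, grouped for being lower in CIE mice, was 8.22 to 10.52 in CIE mice and 10.04 to 11.07 in Ctrl mice, and the mean of the other 2 was 10.75 to 11.04 in CIE mice and 10.67 to 11.03 in Ctrl mice. Which transcript parts these probe sets cover was not examined. Among CIE mice, the mean of the 5 Malat1 probe sets was lowest in mouse 7 and highest in mouse 59. Dlgap2, Dpf1, Rorb and Zbed6, named above as lower genes, were also lowest in CIE mouse 7 and highest in CIE mouse 59. Whether these changes share a source was not tested.

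Of the 11 probe sets called when Ctrl mice 18 and 22 were left out, none was the chosen one of its gene. One for Maf, a transcription factor of microglia and other cells, had a change of 0.79 with all mice (adjusted p = 2.03e-05) and of 0.75 without both, while the chosen Maf probe set had 0.18. One each for the ubiquitin ligase Ube3a, the endocytic scaffold Itsn1 and the actin-binding Filip1 had changes of -0.63, -0.39 and -1.27, and one for Nr3c1, the glucocorticoid receptor, had 0.25. The chosen probe sets of these genes were not called, and the genes are named here after their values were seen.

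The difference of the CIE effect between 7 d and 72 h was tested to ask whether the 7 d changes were particular to the later harvest. No probe set passed (0%), the smallest adjusted p in limma was 0.0731, and 3789 of 45037 probe sets had an unadjusted p at or below 0.05. Of the 190 genes, 125 had the same sign at 72 h, given here without the share over all genes, so nothing is read from it. For Ptprc, the change was 0.35, 0.63, 0.08 and 0.66 at 0 h, 8 h, 72 h and 7 d. For Ccl5 it was 1.11, 1.24, 0.29 and 1.13. The MHC class I median over the 4 harvests was 0.87, 1.02, -0.10 and 0.36, that of interferon-inducible GTPases was 0.93, 1.37, -0.18 and 0.34, and that of homeostatic microglia was 0.05, 0.06, -0.10 and 0.29. In each of these lists the median was lowest at 72 h, an order given as a description, and the 7 d minus 72 h difference was not called for any member. For Gabrg3 and Dlgap2 the changes at 72 h were -0.86 and -0.97, beside -1.003 and -0.997 at 7 d.

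Against 0 h, straight after vapor, the CIE effect differed at 7 d for 12 genes (0.066%). At 0 h, 299 genes were called (1.64%), and 14 genes were called at both harvests, 7.37% of the 190 and 4.68% of the 299, all in the same direction. Fcrls, an Fc receptor-like gene of microglia, differed by 1.22 (adjusted p = 4.8e-05), with a change of -0.86 at 0 h and of 0.37 at 7 d. Olfml3 differed by 0.76 (adjusted p = 0.00128), with -0.31 at 0 h and 0.45 at 7 d, and was the microglial gene of the 12 that was also called at 7 d. Arntl, at -0.16 and 0.41, and Vegfa, the vascular endothelial growth factor, at -0.42 and 0.27, also had changes of opposite sign at 0 h and 7 d.

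**Figure D5:**
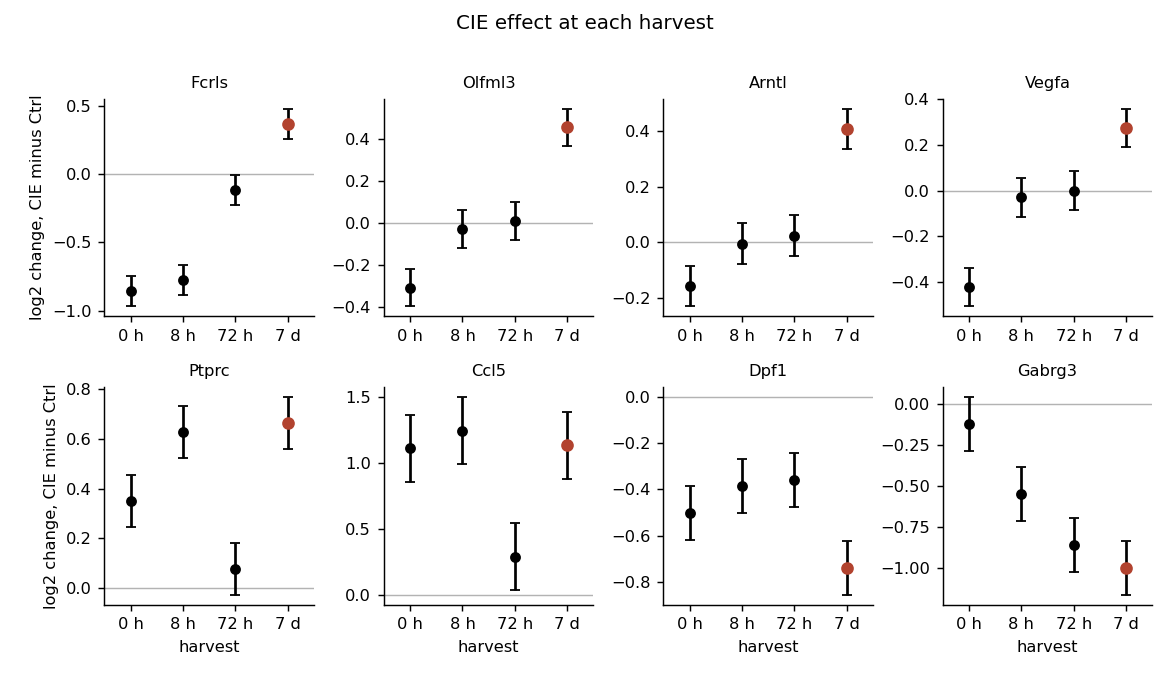
CIE minus Ctrl log2 change (y axis, with SE bars) of 8 genes at 0 h, 8 h, 72 h and 7 d (x axis), the 7 d point in red. Fcrls and Olfml3 are below 0 at 0 h and above it at 7 d, Ptprc and Ccl5 lie nearest to 0 at 72 h, and Gabrg3 is about as low at 72 h as at 7 d.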

How the data were processed

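Hippocampal RNA of 48 mice was measured on Affymetrix Mouse Genome 430 2.0 arrays, 1 array per mouse. The deposited values are log2 expression values that the authors made with robust multi-array average (RMA): background correction and quantile normalization were run within each hybridization batch, a second quantile normalization covered all arrays, and ComBat then adjusted for the batch, which can shrink or add differences where groups and batches are uneven. The sources used here do not give tool versions, and precision is limited by the number of arrays.

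Of 45037 probe sets, 34945 had 1 gene symbol in the platform annotation, 932 had several and 9160 had none. Each of 18193 genes was represented by the probe set with the highest mean (_x_at sets only where there was no other). All 48 arrays entered 1 model with a mean per group (limma 3.58.1, R 4.3.3, lmFit and eBayes, two-sided), with Benjamini-Hochberg adjustment over all probe sets and calls at an FDR of 0.01, as in the study's methods. The fit was tested on simulated data. Labels gave each mouse its own number and no hybridization batch. SE and p-values measure the spread between mice within groups, pooled over all harvests, so mice of the other harvests contribute to them.

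The members and gene lists were chosen with earlier results of these data known. Genes were named as the 12 highest and 12 lowest called changes, the up to 4 members of each list with the smallest p, and the up to 6 genes in each direction with the smallest p in each difference between harvests. Other named genes were chosen after their values were seen. Alternatives were the hybridization set as a block, Ctrl mice 18 and 22 left out, fewer arrays or probe sets, another variance model, array weights, a further normalization, FDR 0.05, any probe set of a gene, and each mouse left out. Promoters were read from a RefSeq table.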

Additional observations from a re-analysis of the deposited data

Results flagged for a closer look

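Of 240 sets of 6 mice at 7 d examined, 17 held 1 mouse far from the other 5 by the size of its gap to the nearest one relative to the group's range (Dixon's criterion). Chance flags about 1 in 20 such groups. Among CIE mice, mouse 59 was far above the others for Serpina3n at 8.50, Gm2115 at 10.9, Gpr161 at 11.2, Spink8 at 11.3 and Pou3f1 at 11.8, and far below them for the dentate granule cell list at 7.93. CIE mouse 7 was high for Abcg1 at 10.5 and low for Sgk1 at 11.0, CIE mouse 9 was high for Irs2 at 8.94 and low for the striatal neuron list at 7.35, and CIE mouse 45 was high for Aldh1a2 at 7.21. Among Ctrl mice, mouse 22 was high for Il6 at 4.15 and Six3os1 at 4.40 and low for Dtx3l at 6.65. Ctrl mouse 46 was high for Il1a at 4.60, and Ctrl mouse 70 was high for Lrmp at 6.78 and low for Mdm4 at 8.99.

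The CIE effect differed between 7 d and 0 h for 12 genes, by limma's test of the difference at an FDR of 0.01. On the log2 scale, 7 d minus 0 h, the difference was positive for Fcrls (1.22), Wif1 (0.98), Olfml3 (0.76), Vegfa (0.70), Arntl (0.57) and 2810013P06Rik (0.45). It was negative for Plin4 (-1.38), Cdkn1a (-0.97), Ciart (-0.75), Srxn1 (-0.53), Sbsn (-0.48) and Dbp (-0.46).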

How the results depend on the processing

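The 604 probe sets and 190 genes called at 7 d became 250 and 63 with the hybridization set as a block, 11 and 0 without Ctrl mice 18 and 22, and 8 and 1 with both changes. With only the 7 d arrays in the fit the counts were 1 and 0, and 0 and 0 with the block added. At an FDR of 0.05 they were 2606 and 893, or 232 and 52 without both mice. Counting any probe set gave 451 genes, 243 higher and 208 lower. Leaving out 1 mouse gave 89 (Ctrl 22) to 1482 (Ctrl 70) probe sets and 21 (Ctrl 22) to 540 (Ctrl 70) genes. The gene count also moved by over 1.5 times without Ctrl 18 (30), Ctrl 80 (103), CIE 7 (75), CIE 9 (50) or CIE 45 (37), and the probe set count without Ctrl 18 (114), Ctrl 54 (371), Ctrl 80 (365), CIE 7 (201), CIE 9 (201) or CIE 45 (130). Dropping the dimmest probe sets, a trended robust variance, array weights or renormalizing gave 177 to 224 genes. The difference from 0 h, 27 probe sets, became 15 without Ctrl mice 18 and 22, 6 with the block as well, 77 at an FDR of 0.05 and 64 at 0.05 without both mice, and 16 (without CIE 45) to 35 (without CIE 37) with 1 mouse left out, with 17 without Ctrl 18. The difference from 72 h stayed at 0 in every setting run. No called gene named in the text turned its direction in these settings. The cause of these moves was not tested. The labels' replicate numbers pair no mice, since the groups share fewer than 2 of them, and the pairing within hybridization sets was run as the block above.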
